A study of Mus musculus with 8 samples.

Results

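Immediate early genes are genes whose transcription starts within minutes of a stimulus without new protein being made, and this account follows 10 of them in degenerating mouse retina: Egr1, Egr2, Egr3, Egr4, Fos, Fosb, Jun, Junb, Nr4a1 and Arc. They were chosen by symbol as the group around Egr1, which had been noted because its level was higher in every rd10 group than in WT P15. The 10 genes are rows of a table of 57010 identifiers, and all 10 passed the filter on low counts that left 20457 genes to test. Since the comparison with WT P15 is what Egr1 was selected on, its values there are given as a description without a test. The other 9 genes were tested in every comparison.

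The products of these genes fall into a few classes. The EGR proteins are zinc finger transcription factors, FOS and JUN family proteins pair with each other to form the AP-1 factor, NR4A1 is an orphan nuclear receptor that acts as a transcription factor, and ARC is a cytoskeleton-associated protein that acts at synapses in the removal of glutamate receptors. Their transcription is commonly driven by serum response factor with its partners at CArG boxes and by CREB at cyclic AMP response elements, downstream of MAP kinase and calcium signalling, and it is used in retina as a readout of light, neuronal activity, growth factors and injury.

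The libraries were made from poly(A) RNA of whole retina, with 1 retina per library and 2 libraries in each of 4 groups. WT P15 mice were wild type at postnatal day 15, and rd10 mice, homozygous for a mutation in the rod phosphodiesterase gene Pde6b that makes rods degenerate, were sampled at postnatal days 15, 18 and 21. The study's methods name wild-type littermates as controls. No WT libraries of P18 or P21 were analysed here, so that for these 2 ages genotype and age cannot be told apart in the comparisons with WT P15, and the 3 comparisons with WT P15 share the same 2 control libraries. Nothing in the labels says how the retinas of a group relate to animals or litters, and p-values measure the spread between these libraries only. The rd10 change is a base substitution, which gene counts do not show.

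Promoter sequences are shown for Junb, Nr4a1 and Egr2, because the first passed every threshold at P18, the second passed the adjusted p at both later ages, and the third went from almost no counts to 225. Each line gives 300 bases from RefSeq (GRCm38.p6), most of them upstream of an annotated start and the last few after it, 5′ to 3′ on the gene's strand, with motif matches on either strand in capitals. The Junb window is chr8:84978699-84978998 on the minus strand, the Nr4a1 window chr15:101266596-101266895 on the plus strand, and the Egr2 window, the third of its annotated starts, chr10:67537619-67537918 on the plus strand.
Junb: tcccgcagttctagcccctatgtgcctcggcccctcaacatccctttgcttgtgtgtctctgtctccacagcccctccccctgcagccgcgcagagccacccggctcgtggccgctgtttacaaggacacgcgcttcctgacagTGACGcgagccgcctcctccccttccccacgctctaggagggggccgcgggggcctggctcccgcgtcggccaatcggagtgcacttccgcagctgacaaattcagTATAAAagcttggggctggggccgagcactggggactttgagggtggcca
Nr4a1: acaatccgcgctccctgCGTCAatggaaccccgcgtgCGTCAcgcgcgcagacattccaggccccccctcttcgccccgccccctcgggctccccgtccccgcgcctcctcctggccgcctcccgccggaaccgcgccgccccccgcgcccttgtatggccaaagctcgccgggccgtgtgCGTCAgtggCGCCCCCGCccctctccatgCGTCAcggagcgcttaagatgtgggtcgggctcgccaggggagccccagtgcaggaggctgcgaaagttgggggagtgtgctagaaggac
Egr2: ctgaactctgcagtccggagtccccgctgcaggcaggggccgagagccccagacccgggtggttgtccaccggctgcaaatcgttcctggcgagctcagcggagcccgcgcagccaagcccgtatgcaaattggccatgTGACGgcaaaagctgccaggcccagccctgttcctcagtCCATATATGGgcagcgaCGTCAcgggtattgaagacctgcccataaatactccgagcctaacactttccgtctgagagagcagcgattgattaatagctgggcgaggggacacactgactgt
In Junb the capitals mark the core of the cyclic AMP response element, TGACG or its reverse complement, 106 bases upstream of the start, and a TATAAA at the annotated start, which in RefSeq lies 30 bases from the start that GENCODE gives. The Nr4a1 start lies 12577 bases inside the gene that GENCODE gives, and its capitals mark 4 such cores at 233, 213, 69 and 40 bases upstream, and a match to the EGR motif GCGNGGGCG at 60 bases upstream. The Egr2 start lies 2394 bases inside its gene, and its capitals mark cores at 111 and 55 bases and a CArG box at 72 bases upstream. The first Egr2 window, whose start lies 24 bases from the start that GENCODE gives, is not shown and held no match to any motif searched.

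RefSeq windows were at hand for 7 of the 10 genes, which leaves out Egr1, Egr3 and Arc. The core TGACG occurred in 6 of these 7 (Egr2, Egr4, Fos, Fosb, Junb and Nr4a1), and in 20.8% of all 32851 promoter windows. In Fos it lay 129 and 66 bases upstream, with a TATAAA 33 bases upstream. The full element TGACGTCA, which contains the core, occurred in 0 of the 7 (1.79% of all windows), as did the AP-1 motif TGANTCA (7.81%). The CArG box occurred in Egr2 alone (1.63%), the EGR motif in Fosb and Nr4a1 (5.55%), and TATAAA in Fos and Junb (13.6%). Jun held none of these motifs in its window, though it did hold TGACATCA, which the letters searched do not cover. These matches describe letters and not bound sites, and genes with several annotated starts had several windows in which to match. Sequence farther upstream, and the promoters of Egr1, Egr3 and Arc, were not searched, so that a motif absent here can lie outside the windows.

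Total counts lay between 28076947 and 33724562 per library, and the scaling factors between 0.937 and 1.063. Rod markers were abundant, so that the libraries carried the markers of retina. Summed over 5 genes they stood at 16460 to 42690 CPM, counts scaled to library size by TMM. Lens markers were nearly lacking (at most 5.13 CPM over 5 genes). The 5 pigment epithelium markers were uneven between groups. One of them, Ttr, stood at 16.2 and 65.4 CPM in WT P15, and at 99.4 and 124 CPM in rd10 P15. At the later ages Ttr stood at 9.92 to 18.85 CPM. The median log2 difference of the 5 from rd10 P15 to P18 was -2.96, with 0 positive and 0 called, beside 0.591% of all genes called. Another of the 5, Rlbp1, is also on the list of Müller glia markers. It makes up most of the sum of the 5 (346 of 367 CPM in WT P15 replicate 1). The part of pigment epithelium in the levels of the 10 genes was not tested. Y-linked genes were expressed in both libraries of rd10 P15 and in replicate 1 of each later age, and in neither WT P15 library, so that sex and genotype cannot be told apart at P15. Replicate numbers do not pair the retinas.

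**Figure D1:**
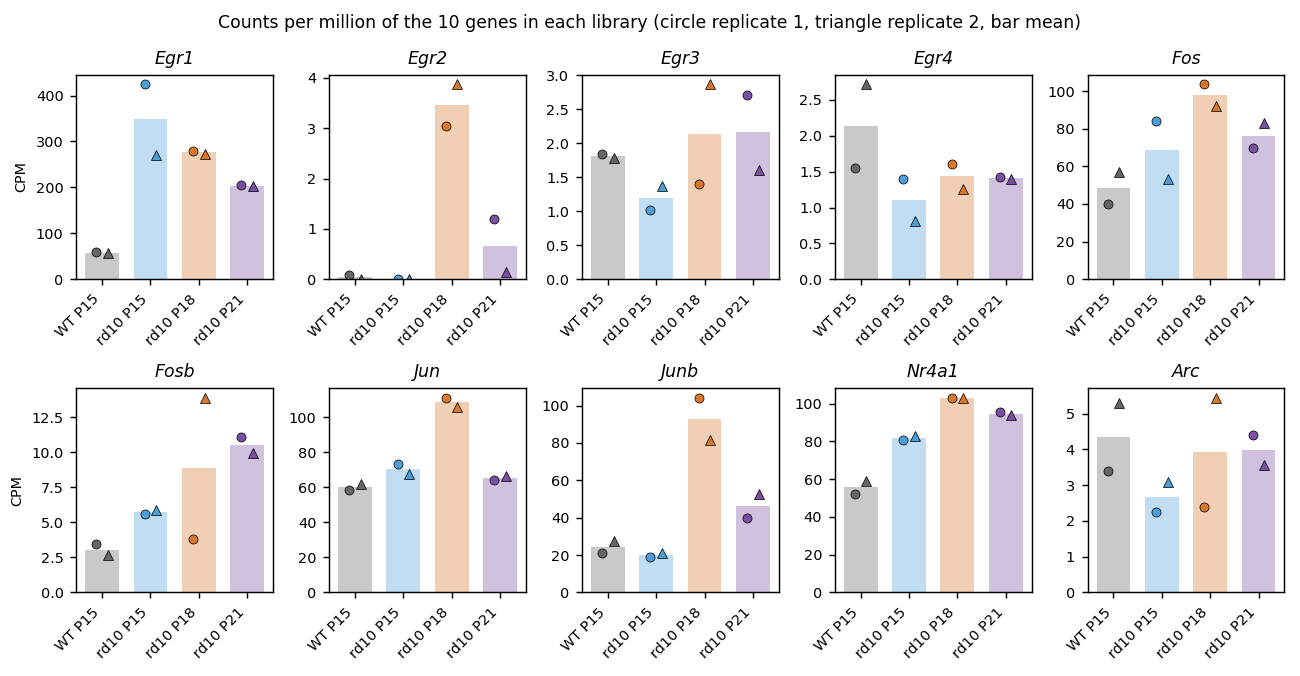
CPM (y axis, linear, starting at 0) of each of the 10 genes in the 4 groups (x axis). Circles are replicate 1, triangles replicate 2 and bars the mean of both. Egr1 stood at 56.2 to 58.6 CPM in WT P15 and at 202 to 425 CPM in the rd10 libraries, whereas Junb and Egr2 were highest in rd10 P18 and Fosb in rd10 P18 spanned 3.79 to 13.9 CPM.

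Egr1 encodes a zinc finger factor that is among the most widely used markers of recent stimulation. It stood at 58.6 and 56.2 CPM in the 2 WT P15 libraries, then at 425 and 271 CPM in rd10 at P15, 279 and 273 CPM at P18, and 205 and 202 CPM at P21. All 6 rd10 libraries lay above both WT libraries. Against WT P15 its log2 fold change was 2.60 (SE 0.21) at P15, 2.27 (SE 0.21) at P18 and 1.83 (SE 0.20) at P21, values that the choice of the gene used. Within rd10, which the choice did not use, the log2 difference was -0.33 from P15 to P18 (SE 0.20, adjusted p = 0.524) and -0.44 from P18 to P21 (SE 0.20, adjusted p = 0.466). From low to high the group means were in the order WT P15, rd10 P21, rd10 P18, rd10 P15, and the last 2 of these overlapped, because the rd10 P15 libraries were the farthest apart. Without replicate 1 of rd10 P15 the P15 to P18 difference was 0.03.

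Several other values moved with Egr1 at P15. The sum of 4 endothelial markers was 27.6 to 32.7 CPM in WT P15 and 75.8 to 86.1 CPM in rd10 P15, and that of 4 pericyte and smooth muscle markers was 109 to 110 CPM and 199 to 220 CPM. Each of these lists had 1 marker called higher, beside 0.23% of all genes called in either direction. The sum of 5 rod markers was 34270 to 42690 CPM in WT P15 and 25010 to 26290 CPM in rd10 P15, and fewer rods and less RNA per rod cannot be told apart in whole tissue. Of 4 cone markers all lay apart and lower in rd10 P15, beside 24.9% of all genes, with Arr3 called (-1.71, adjusted p = 0.015). Their sum was 804 to 1077 CPM in WT P15 and 435 to 501 CPM in rd10 P15. The sum of 5 red blood cell genes was 177 to 188 CPM and 67.1 to 84.6 CPM, and all 5 ganglion cell markers were apart and higher in rd10 P15 (1328 to 1349 and 1624 to 1675 CPM), with 0 of these 10 called. Over all genes 24.8% lay apart and higher. The 5 pigment epithelium markers had a median log2 difference of 0.86 between rd10 P15 and WT P15, with 4 positive and 0 called. In the rd10 libraries without Y-linked expression Egr1 stood at 273 CPM (P18) and 202 CPM (P21), and in those with it at 279 and 205 CPM. The part of these cell types and of sex in the level of Egr1 was not tested.

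The other EGR genes did not share the level of Egr1. Egr2, which encodes a zinc finger factor known for its part in myelinating Schwann cells and in lymphocytes, had 2 and 0 counts in the WT P15 libraries and 0 in both rd10 P15 libraries. It had 225 counts over the rd10 P18 libraries (3.04 and 3.88 CPM) and 46 over the rd10 P21 libraries (1.20 and 0.14 CPM). The rd10 P18 libraries were thus the highest and lay apart from all others. The ratio of rd10 P18 to WT P15 was 99.9 (95% interval 27.3 to 830, counting error only), and rd10 P18 was at least 68.7-fold higher than rd10 P15, with a floor of 3 counts over the group. The adjusted p of Egr2 was 0.0836 and 0.0969 in these 2 comparisons, which misses the threshold of 0.05. At P21 the ratio to WT P15 was 20.9 (5.48 to 178), with adjusted p = 0.319, and the 2 libraries of that age differed 8.57-fold.

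Egr3 and Egr4 encode the remaining members of the family, and both were low. Egr3 stood at 1.85 and 1.78 CPM in WT P15, then 1.02 and 1.37 in rd10 at P15, 1.40 and 2.87 at P18, and 2.71 and 1.61 at P21. Its WT P15 and rd10 P18 libraries overlapped, and the log2 difference of 0.23 (SE 0.54, adjusted p = 0.874) turned to -0.37 without replicate 2 of rd10 P18. Egr4 stood at 1.55 and 2.72 CPM in WT P15 and between 0.81 and 1.61 CPM in the 6 rd10 libraries. Its log2 differences from WT P15 were -0.95 (SE 0.56), -0.57 (SE 0.55) and -0.60 (SE 0.55) with rising age, with adjusted p of 0.547, 0.641 and 0.762. At these counts, 67 to 141 per group for the pair, differences of this size could not be resolved.

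Among the AP-1 genes, Junb showed the clearest change and changed at P18. JUNB is a JUN family protein that pairs with FOS proteins. Junb stood at 21.3 and 27.5 CPM in WT P15, then 19.0 and 21.2 in rd10 at P15, 104 and 81.8 at P18, and 39.8 and 52.9 at P21. No rd10 P18 library overlapped with any other group, and rd10 P15 lay just below WT P15. The log2 fold change of rd10 P18 was 1.93 (SE 0.21, adjusted p = 0.00805) against WT P15 and 2.21 (SE 0.22, adjusted p = 0.0065) against rd10 P15. Between rd10 P21 and rd10 P18 the difference was -1.01 (SE 0.21, adjusted p = 0.378), and between rd10 P21 and WT P15 it was 0.92 (SE 0.21, adjusted p = 0.118). The first call was lost without WT P15 replicate 1 (adjusted p = 0.0893), and the second without replicate 1 (0.0964) or replicate 2 (0.0636) of rd10 P15. The rd10 P18 library without Y-linked expression is the one at 81.8 CPM, and the part of sex was not tested beyond a fit with a term for it, in which both calls were kept (adjusted p = 0.0198 and 0.00733).

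Junb (chr8:84974484-84978718, minus strand) overlaps Prdx2 on the opposite strand, and the library protocol names no step that marks the strand, so that reads of the pair cannot be told apart where they overlap. Prdx2, a peroxiredoxin gene, stood at 155 and 167 CPM in WT P15, then 200 and 193 in rd10 at P15, 268 and 180 at P18, and 174 and 154 at P21. It was higher in rd10 P18 by 0.48 on the log2 scale against WT P15 (adjusted p = 0.244) and by 0.19 against rd10 P15 (adjusted p = 0.722). In group means, Prdx2 was at 161 CPM in WT P15 and 224 CPM in rd10 P18, and Junb at 24.4 and 93.1 CPM. Its part in the counts of Junb was not tested.

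Jun, which encodes the founding member of the JUN family, was also highest at P18, with a smaller range than Junb. It stood at 58.5 and 62.2 CPM in WT P15, then 73.3 and 67.9 in rd10 at P15, 111 and 106 at P18, and 64.0 and 66.8 at P21. The rd10 P18 libraries lay above all others, and the log2 fold change of 0.85 (SE 0.12) against WT P15 passed the adjusted p (0.0222) but not the fold threshold of 1. It missed the adjusted p without either WT P15 library (0.189 and 0.103), by little without either rd10 P15 library (0.0502 and 0.0521), and in a fit to only the 4 libraries compared (0.0958). The differences at P15 (0.23, adjusted p = 0.517) and at P21 (0.12, adjusted p = 0.805) were small, and those within rd10 were 0.62 up to P18 (adjusted p = 0.0812) and -0.73 after it (adjusted p = 0.215). Jun overlaps the antisense gene Junos, which was at most 2.07 CPM in any library.

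Fos and Fosb encode partners of the JUN proteins. Fos stood at 39.9 and 56.9 CPM in WT P15, then 84.1 and 53.2 in rd10 at P15, 104 and 91.9 at P18, and 69.9 and 82.8 at P21. WT P15 and rd10 P15 overlapped, while the libraries of the 2 later ages lay above WT P15. Its log2 difference from WT P15 was 1.01 at P18 (SE 0.25, adjusted p = 0.0877) and 0.66 at P21 (SE 0.25, adjusted p = 0.343), and neither passed the test. Fosb stood at 3.44 and 2.65 CPM in WT P15, then 5.60 and 5.89 in rd10 at P15, 3.79 and 13.9 at P18, and 11.1 and 9.96 at P21. All 6 rd10 libraries of Fosb were above both WT libraries, but the log2 differences of 0.92, 1.54 and 1.79 had standard errors of 0.53 and adjusted p of 0.54, 0.191 and 0.22. The rd10 P18 libraries of Fosb differed 3.67-fold, the widest spread of that group. Without replicate 1 of rd10 P18 its P18 difference was 2.19 (adjusted p = 0.0152), and without replicate 2 it was 0.32 (adjusted p = 0.613).

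Nr4a1, the nuclear receptor gene, differed little between replicates. It stood at 52.4 and 59.0 CPM in WT P15, then 80.8 and 83.0 in rd10 at P15, 103 and 103 at P18, and 95.3 and 94.0 at P21. No groups overlapped, and all rd10 libraries lay above WT P15. The log2 fold change against WT P15 was 0.56 at P15 (SE 0.12, adjusted p = 0.112), 0.89 at P18 (SE 0.12, adjusted p = 0.0194) and 0.77 at P21 (SE 0.12, adjusted p = 0.0496), all under the fold threshold. The later 2 missed the adjusted p without WT P15 replicate 1 (0.175 and 0.354) or WT P15 replicate 2 (0.0779 and 0.161), and the value at P18 also in a fit to only the 4 libraries compared (0.0945). The value at P21 kept its adjusted p without either rd10 P18 library and missed it without any other library and with a term for sex (0.1). Within rd10 the differences were 0.33 up to P18 (adjusted p = 0.316) and -0.12 after it (adjusted p = 0.73).

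Arc, widely used as a marker of recent synaptic activity, stood at 3.40 and 5.31 CPM in WT P15, then 2.26 and 3.10 in rd10 at P15, 2.39 and 5.45 at P18, and 4.40 and 3.57 at P21. The rd10 P15 libraries lay below WT P15 and the later ones overlapped with it. The log2 differences from WT P15 were -0.70 (SE 0.47, adjusted p = 0.608), -0.15 (SE 0.47, adjusted p = 0.911) and -0.13 (SE 0.47, adjusted p = 0.969).

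**Figure D2:**
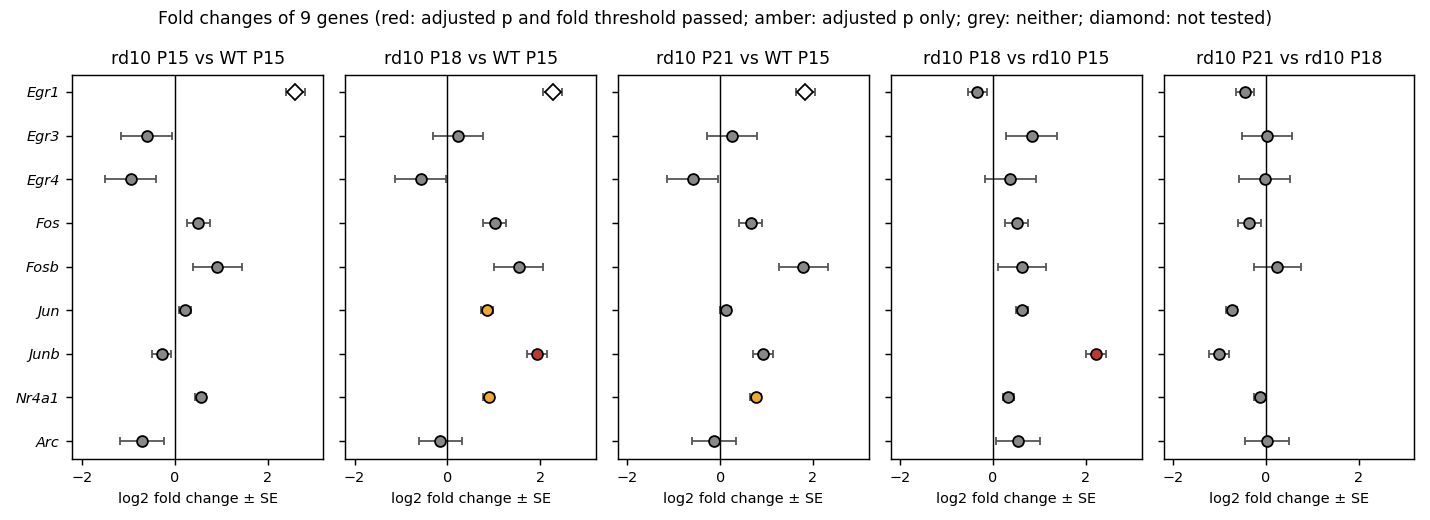
Log2 fold changes (x axis, bars are ± SE) of 9 of the 10 genes (y axis) in 5 comparisons. Egr2 is left out because 2 groups had 2 and 0 counts. Red marks genes past adjusted p 0.05 and an absolute log2 fold change of 1 (Junb, 1.93 and 2.21), amber those past the adjusted p alone (Jun and Nr4a1), and open diamonds Egr1 against WT P15, which was not tested.

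At P15, 0 of the 9 genes tested against WT P15 were called by edgeR (adjusted p below 0.05 with a log2 fold change beyond 1 in either direction), beside 0.23% of all genes tested, and DESeq2 also called 0. At an unadjusted p under 0.05 there was 1 of the 9, beside 12.3% of all genes. Libraries lay apart and higher for 3 genes (Fosb, Jun, Nr4a1), beside 24.8% of all genes, and apart and lower for 4 (Egr3, Junb, Arc and Egr4), beside 24.9%. Neither count says more than these shares of all genes. Their median log2 difference was -0.28, beside -0.01 over all genes, and -0.03 without Egr2, for which no fold can be given at this age.

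At P18, 1 of the 9 genes was called against WT P15 (Junb), beside 1.48% of all genes, and 3 passed the adjusted p alone (Junb, Jun, Nr4a1), beside 1.89%. At an unadjusted p under 0.05 there were 6, beside 17.4% of all genes. DESeq2 called 3 (Egr2, Fos, Junb). The shares of all genes are those of edgeR, and none is given for DESeq2, so its counts cannot be set against them. Libraries lay apart and higher for 6 genes, beside 24.1% of all genes, and apart and lower for 0. The median difference was 0.89 (0.87 without Egr2), beside 0.01 over all genes. With scaling by library size alone the median was 1.01, where the median of all genes was itself 0.13, and at P21 it was 0.11.

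At P21, 0 of the 9 were called against WT P15 by edgeR, beside 0.386% of all genes, and 1 passed the adjusted p alone (Nr4a1), beside 0.425%. At an unadjusted p under 0.05 there were 5, beside 11.8% of all genes. DESeq2 called 1 (Fosb), for which no share of all genes is given. Libraries lay apart and higher for 6 genes, beside 24.9% of all genes, and the median difference was 0.66 (0.46 without Egr2), beside 0.00 over all genes.

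Within rd10 all 10 genes were tested. From P15 to P18, 1 was called (Junb), beside 0.591% of all genes, and 4 had an unadjusted p under 0.05, beside 12.9%. Libraries lay apart and higher for 6, beside 21.9%, and the median difference was 0.58, beside 0.01 over all genes. From P18 to P21, 0 were called by edgeR, beside 0.0196%, with 2 at an unadjusted p under 0.05, beside 10.8% of all genes. DESeq2 called 1 (Junb), for which no share of all genes is given. Libraries lay apart and lower at P21 for 6 genes, beside 22% of all genes, and apart and higher for 0. The median difference was -0.24, beside -0.00 over all genes.

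**Figure D3:**
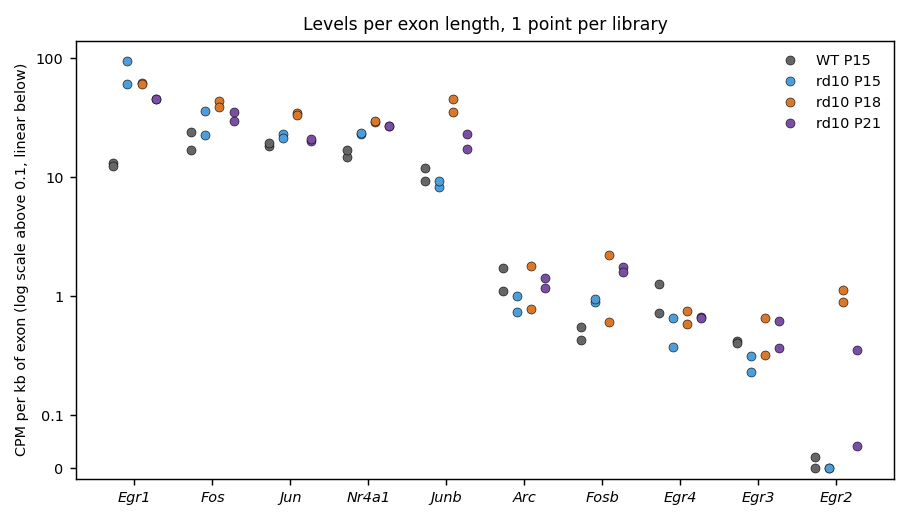
CPM per kilobase of merged exons (y axis, log scale above 0.1 and linear below it) for the 10 genes (x axis, ordered by mean level), with 1 point per library coloured by group. Egr1, Fos, Jun, Nr4a1 and Junb form an upper set, and Arc, Fosb, Egr4, Egr3 and Egr2 a lower one at no more than 1.69 on average in any group.

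Per kilobase of exon the genes formed an upper and a lower set. In WT P15 the mean level was 20.6 CPM per kb for Fos, 18.9 for Jun, 15.9 for Nr4a1, 12.8 for Egr1 and 10.6 for Junb, while Arc stood at 1.43 and the remaining genes below it. In rd10 P15 the level of Egr1, 77.6 CPM per kb (SD 24.2, n = 2), was the highest of the 10, followed by Fos at 29.2 (SD 9.29). In rd10 P18 Egr1 stood at 61.5, Fos at 41.6, Junb at 40.5, Jun at 34.1 and Nr4a1 at 29.4 CPM per kb. Egr1 was behind Fos, Jun and Nr4a1 in WT P15 and had the highest mean of the 10 in each rd10 group. Replicates did not share a direction: replicate 1 was the higher library for 4, 4, 5 and 7 of the 10 genes in WT P15, rd10 P15, rd10 P18 and rd10 P21.

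Over the 8 libraries, the 45 pairs among the 10 genes had a median Pearson r of log2 CPM of 0.32, from -0.63 to 0.89, and 33 were positive. The points share the group structure and their libraries, so this is a description. For Egr1 they also hold the difference between WT P15 and rd10 on which it was selected, so that likeness to Egr1 reuses that difference. Among 15961 genes with a mean of at least 1 CPM, those most like Egr1 were Tmc6 (r = 0.99), Tspan14 (0.99), Hap1 (0.99), Gm3756 (0.98) and Bgn (0.98). Hap1, which encodes huntingtin-associated protein, had group means of 90.0, 164, 140 and 133 CPM in WT P15, rd10 P15, rd10 P18 and rd10 P21, and Bgn, which encodes the matrix proteoglycan biglycan, had 1.56, 8.58, 7.02 and 5.43 CPM. None of the other 9 genes was near this rank: Nr4a1 was at rank 368 (r = 0.83) and Fos at rank 963 (r = 0.73), whereas Egr2 was at rank 4518 (0.32) and Junb at rank 4786 (0.29), and Egr3, Egr4 and Arc had negative r. The genes most like Fos were Ncald, Nr1h4, Eif3b, P3h4 and Zfand3 (r = 0.95 to 0.97).

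A list of 34 other immediate early genes, all of them tested, was read in the same fit. At P18, 4 were called higher than in WT P15 and 0 lower, beside 1.48% of all genes called in either direction: Atf3, a stress-induced factor of the ATF/CREB family (log2 fold change 2.31, SE 0.34, adjusted p = 0.0222), Ccn1, a secreted matrix protein (1.79, SE 0.28, 0.0288), Zfp36, which speeds the decay of AU-rich mRNAs (1.75, SE 0.32, 0.0391), and Ier2 (1.43, SE 0.20, 0.0217). Atf3 stood at 3.55 and 4.69 CPM in WT P15, then 2.13 and 3.35 in rd10 at P15, 20.8 and 20.2 at P18, and 8.14 and 5.24 at P21. Like Junb, its rd10 P18 libraries lay apart from all other groups. Each of the 4 calls was lost when either WT P15 library was left out, with adjusted p from 0.081 to 0.233, and that of Zfp36 also without either rd10 P21 library (0.0563 and 0.055). Within rd10, 3 were called higher at P18 than at P15, beside 0.591% of all genes: Gadd45b, which acts in growth arrest and DNA demethylation (3.37, SE 0.38, adjusted p = 0.0134), Atf3 (2.90, SE 0.35, 0.0166) and Ccn1 (2.08, SE 0.29, 0.0278). Each was lost without either rd10 P15 library, with adjusted p from 0.069 to 0.207. Gadd45b stood at 5.95 and 12.3 CPM in WT P15, then 2.45 and 2.33 in rd10 at P15, 29.9 and 19.7 at P18, and 13.3 and 13.5 at P21, so that its rd10 P15 libraries were low as well as its rd10 P18 libraries high.

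In the remaining comparisons 0 of the 34 were called by edgeR. At an unadjusted p under 0.05 there were 8 at P15 (12.3% of all genes), 11 at P21 (11.8%) and 10 from P18 to P21 (10.8%). In the comparisons with calls there were 24 at P18 against WT P15 (17.4%) and 20 from P15 to P18 (12.9%). Where edgeR called 0, DESeq2 called 2 (Npas4 and Gadd45b, both lower in rd10), 1 (Fosl2) and 1 (Atf3), without a share of all genes beside them. The median log2 difference of the list from WT P15 was 0.00 at P15, 0.66 at P18 and 0.41 at P21. The nearest relatives of Nr4a1 had other values: Nr4a3 stood at 3.84 and 8.16 CPM in WT P15 and 1.07 and 2.39 in rd10 P18 (log2 difference -1.79, SE 0.50, adjusted p = 0.122), and Nr4a2 differed by -0.40 (SE 0.23, adjusted p = 0.425). Npas4, a factor induced by neuronal activity, differed by -1.41 at P15 (SE 0.35, adjusted p = 0.146).

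**Figure D4:**
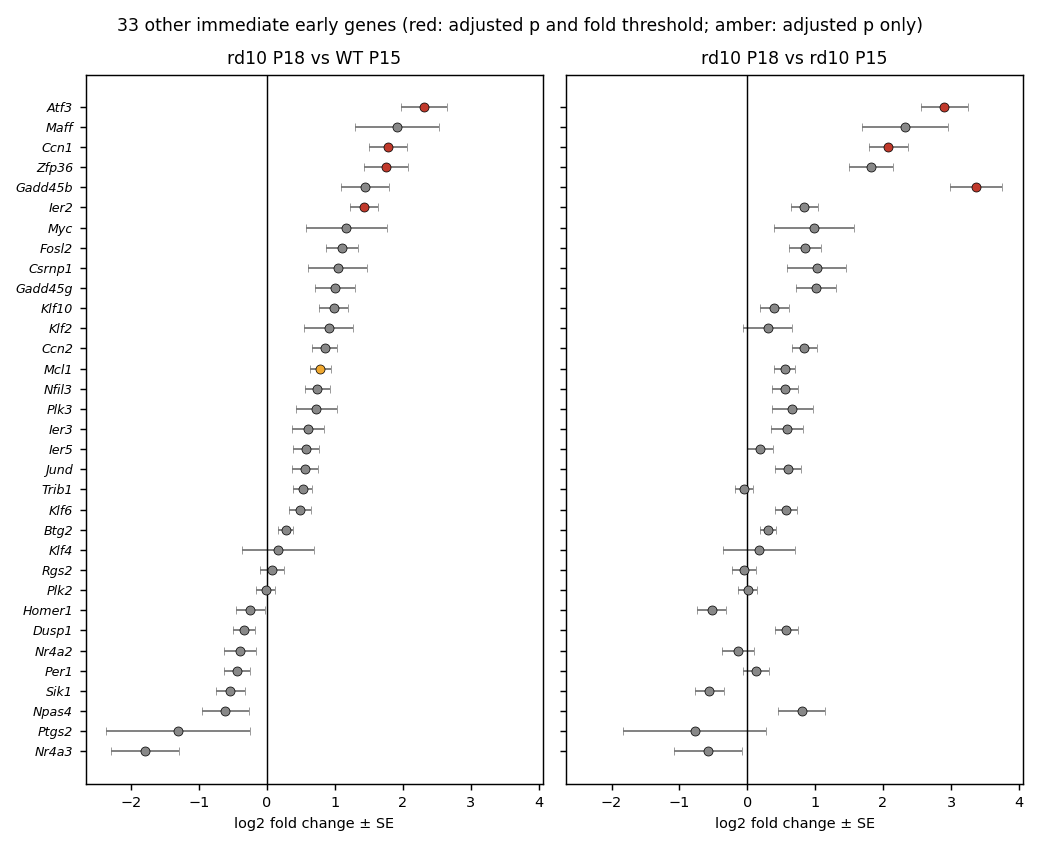
Log2 fold changes (x axis, bars are ± SE) of the other immediate early genes (y axis, ordered by the left panel; Fosl1, which had no counts in WT P15, is not drawn) for rd10 P18 against WT P15 and against rd10 P15. Red marks the genes past both thresholds (Atf3, Ccn1, Zfp36 and Ier2 on the left, Gadd45b, Atf3 and Ccn1 on the right) and amber Mcl1, past the adjusted p alone.

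Regulators around these genes were read from their mRNA in the same fit. Of 20 upstream kinases and transcription factors, such as Srf, 0 were called in any of the 5 comparisons, with 0, 4, 1, 5 and 4 at an unadjusted p under 0.05 for P15, P18 and P21 against WT P15, P18 against P15 and P21 against P18. Over all genes tested these shares were 12.3%, 17.4%, 11.8%, 12.9% and 10.8%, and the shares called were 0.23%, 1.48%, 0.386%, 0.591% and 0.0196%. Srf differed from WT P15 by 0.25 at P18 (SE 0.17, adjusted p = 0.494). Of 11 feedback regulators and co-repressors, 1 was called in any comparison, at P18 against WT P15, beside 1.48% of all genes. This was Spry1, an inhibitor of receptor tyrosine kinase signalling (1.27, SE 0.25, adjusted p = 0.0444). In the same order, 1, 5, 4, 5 and 5 of the 11 had an unadjusted p under 0.05. Spry1 stood at 7.80 and 11.98 CPM in WT P15 and 25.8 and 22.1 in rd10 P18, which do not overlap, but the call was lost without any library other than rd10 P18 replicate 2, with a term for sex (adjusted p = 0.109) and in a fit to only the 4 libraries compared (0.132). Nab2, a co-repressor of EGR1 that EGR1 itself induces, stood at 12.8 and 21.6 CPM in WT P15, then 10.4 and 14.7 in rd10 at P15, 27.4 and 29.6 at P18, and 27.3 and 25.0 at P21. Its P15 libraries overlapped between genotypes, and its difference from WT P15 at P18 was 0.73 (SE 0.27, adjusted p = 0.226). Of 8 later activity-response genes 0 were called, with 2, 0, 1, 3 and 0 at an unadjusted p under 0.05 in that order, and Bdnf differed from WT P15 by -0.44, 0.20 and -0.00 with rising age (adjusted p = 0.441, 0.669 and 1).

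**Figure D5:**
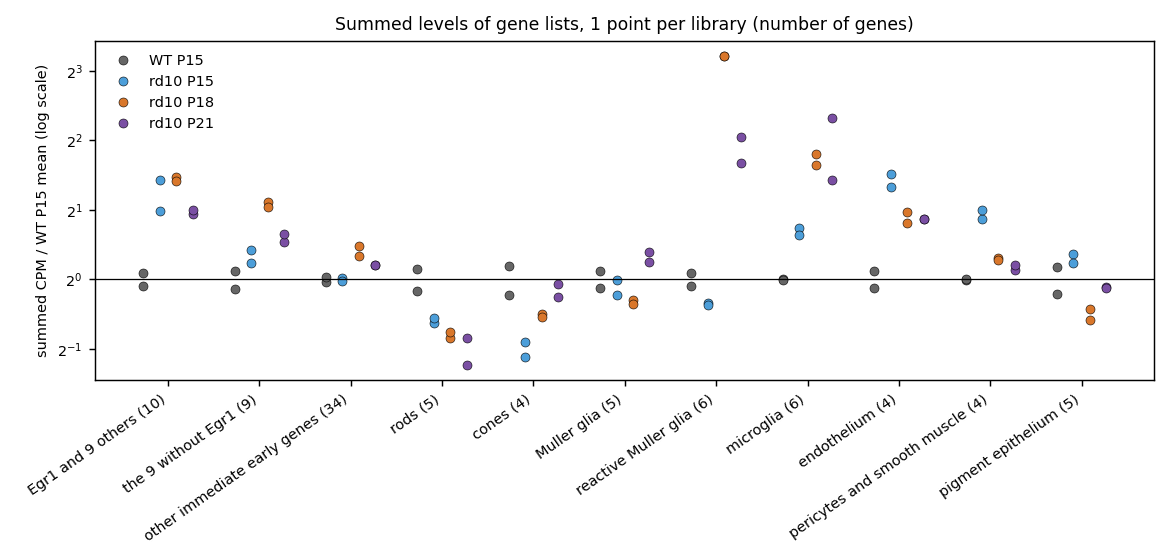
Summed CPM of gene lists (x axis, with the number of genes) in each library, divided by the WT P15 mean (y axis, log scale), 1 point per library coloured by group. The sum of the 9 genes without Egr1 was 182 to 218 CPM in WT P15, 236 to 268 CPM in rd10 P15, 410 to 434 CPM in rd10 P18 and 290 to 313 CPM in rd10 P21. With Egr1, whose higher level in rd10 is what it was selected on, the sums were 241 to 274 CPM in WT P15 and 495 to 713 CPM in rd10. The list for reactive Müller glia, whose genes whole retina cannot assign to a cell type, had its highest sum at P18. The pigment epithelium sum is mostly Rlbp1, which is also on the Müller glia list.

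Markers of other cell states also differed from WT P15 at P18. All 6 genes on a list for reactive Müller glia, the retina's radial glia under stress, were called higher in rd10 P18 than in WT P15. Of all genes, 1.48% were called in either direction. The list holds Gfap, Edn2, Lcn2, Serpina3n, Stat3 and Socs3, and counts of whole retina do not show which cells carried them. Their sum was 114 to 129 CPM in WT P15, 94.3 to 95.5 in rd10 P15, 1124 to 1125 in rd10 P18 and 387 to 501 in rd10 P21. Socs3 and Stat3, a feedback inhibitor and a factor of cytokine signalling, are among these 6 and rose by 3.80 (SE 0.29, adjusted p = 0.00171) and 1.47 (SE 0.12, adjusted p = 0.00271) on the log2 scale. Of 6 microglial markers 2 were called at P18, and their sum was 33.99 to 34.15 CPM in WT P15, 52.8 to 57.1 in rd10 P15, 107 to 119 in rd10 P18 and 91.5 to 170 in rd10 P21. Their median log2 difference from WT P15 was 2.01 at P18 and 2.08 at P21. From P18 to P21 it was 0.17. From rd10 P15 to P18, 5 had a positive difference, while P2ry12 went from 7.97 to 4.08 CPM. Of 5 general Müller glia markers 0 were called at P18 by edgeR, with 3 at an unadjusted p under 0.05, and their median log2 difference was 0.06, with Glul and Rlbp1 lower (-0.52 and -0.39) and Slc1a3, Aqp4 and Apoe positive (0.40, 0.29 and 0.06). Their sum, of which Glul is the largest part, was 3426 to 4056 CPM in WT P15 and 2919 to 3038 CPM in rd10 P18. No marker was at 0 in all libraries. The part of these cell states in the levels of the early genes was not tested.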

How the data were processed

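The authors deposited raw read counts per Ensembl gene, whole numbers without normalization, for 8 libraries of the Illumina NovaSeq platform. HISAT2 is named in the submitters' processing notes. Its version, the counting tool and the build were not given in the sources used here. GENCODE M21 (GRCm38), which names 52081 of the 57010 identifiers, gave symbols, exon lengths and overlaps, and RefSeq gave promoter windows.

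Genes were kept by filterByExpr (minimum count 10, minimum total count 15), scaled by TMM, and tested with edgeR 4.0.16 (R 4.3.3) by the quasi-likelihood method in a fit to all 8 libraries. P-values were adjusted by Benjamini-Hochberg over 20457 genes, and genes were called at adjusted p below 0.05 with a log2 fold change beyond 1 in either direction. The SE is the log2 fold change divided by the square root of F. Log2 CPM used a prior count of 2, and the floor is 3 counts over a group. Intervals cover counting error only. Correlations of deviations between libraries of the same replicate number lay between -0.025 and 0.059.

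Alternatives were DESeq2 1.42.0 (the tool of the study's methods), RLE factors, library size only, no filter, no fold threshold, only the 4 libraries compared, a replicate block, a term for sex, and each library left out in turn. The 10 genes and the lists were chosen with earlier results of these data known. Besides the 10, the text names every called gene of the other early and signalling lists and the 5 genes most like Egr1 or Fos. Other genes named were chosen after their values were seen.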

Additional observations from a re-analysis of the deposited data

Results flagged for a closer look

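Within rd10, 4 early genes differed between ages by the test of that difference, and all 4 were higher at P18 than at P15. They were 1 of the 10 genes and 3 of the 34 others, beside 0.591% of all genes called. As given above, each call depended on both rd10 P15 libraries. These were Junb (log2 difference 2.21), Gadd45b (3.37), Atf3 (2.90) and Ccn1 (2.08). Between P18 and P21 edgeR called none of these 4, beside 0.0196% of all genes. DESeq2 called Junb and Atf3, for which no share of all genes is given. There is no WT library at P18 among those analysed, so that the part of age alone was not tested.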

How the results depend on the processing

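Groups of 2 libraries limit every count here, and no share of all genes called is given for the alternatives. The number of the 9 genes called at P18 against WT P15 (1) was 3 with DESeq2, 2 with library size only, 2 with no filter, 3 with no fold threshold, and 0 to 2 with each library left out, being 0 without WT P15 replicate 1. At P21 against WT P15 (0) it was 1 with DESeq2, 1 with only the 4 libraries compared (Fosb), 1 with no fold threshold, and 0 to 1 leaving out libraries. From P15 to P18 within rd10 (1) it was 2 with DESeq2, 2 with no filter, and 0 to 2 leaving out libraries, being 0 without either rd10 P15 library. From P18 to P21 (0) it was 1 with DESeq2 and 0 to 2 leaving out libraries, being 2 without rd10 P18 replicate 2. With the replicate block the counts were 0, 1, 0, 1 and 0, as without it, and the numbers do not pair the libraries. Of the other calls the block moved those of Zfp36 (adjusted p = 0.0604) and Spry1 (0.0711) past the threshold.

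Of the 34 other early genes, those called at P15, P18 and P21 against WT P15 (0, 4 and 0) were 2, 8 and 1 with DESeq2, and 0 to 1, 0 to 8 and 0 to 1 leaving out libraries, being 0 at P18 without either WT P15 library and 8 without rd10 P18 replicate 2. At P15 there was 1 with no filter, and at P18 there was 1 with only the 4 libraries compared and 2 with a term for sex. Within rd10 (3 and 0) DESeq2 called 5 and 1, and leaving out libraries gave 0 to 6 and 0 to 3, with 6 and 3 without rd10 P18 replicate 2. The cause was not tested.

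Median log2 differences of the group moved by less than the spread between replicates in all 75 fits. Signs turned only for differences that were not called: Arc at P21 against WT P15 was 0.13 with a term for sex. Leaving out libraries gave ranges for Arc of -0.87 to 0.32 (P18 against WT P15), -0.40 to 0.23 (P21 against WT P15), -0.17 to 1.02 (P18 against P15) and -0.45 to 0.74 (P21 against P18), for Egr3 of -0.37 to 0.66 (P18 against WT P15), -0.17 to 0.59 (P21 against WT P15) and -0.41 to 0.62 (P21 against P18), for Egr4 of -0.19 to 0.16 (P21 against P18), for Fosb of -0.60 to 1.27 (P18 against P15) and -0.40 to 1.47 (P21 against P18), and for Egr1 of -0.62 to 0.031 (P18 against P15).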
